A study of Homo sapiens with 48 samples.

Results

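The genes described here are 56 cell-cycle and DNA replication genes, taken by name from a list of cyclins, cyclin-dependent kinases (CDKs) and their inhibitors, cell-cycle transcription factors, replication factors, deoxynucleotide enzymes and mitotic genes. They are 56 of the 29744 genes in the table, and 55 of them passed the filter on low counts. CCNE1, which encodes cyclin E1, did not pass and is described only by its level. The members fall into 10 role groups, of which 14 licensing and fork genes and 4 deoxynucleotide genes are called the replication members below, and 28 genes of the G2/M, checkpoint, kinetochore, anaphase, spindle, cytokinesis and chromosome groups are called the mitosis members.

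RNA was sequenced from IL11mNG reporter fibroblasts, an established line of immortalized human skin fibroblasts in which single-cell clones carry mNeonGreen at IL11. In the CRISPRko arm the cells carried Cas9 and either a non-targeting guide (H47_Ctrl) or a guide against GLIS3 (H47_KO). In the CRISPRa arm they carried dCas9–VP64, a transcriptional activator, and either a non-targeting guide (VP64_Ctrl) or a guide that activates GLIS3 (VP64_A). Every group was treated with TGFβ and IL-1β at 10 ng per ml each for 0, 6, 12 or 24 h, with 3 libraries in each of the 16 conditions. All cells carried the reporter, a Cas9 or dCas9–VP64 vector and a guide vector, and were drug-selected. Each group is therefore 1 transduced population, and the clone, the guide and the selection cannot be told apart within a comparison of cells. The labels do not say that the 3 libraries of a condition came from separate cultures, so the p-values measure the spread between these libraries, which may be technical. Cytokines were added at staggered times and all wells were collected together, with the medium renewed as the cytokines went in. Time with the cytokines and time since the medium change therefore cannot be told apart in any comparison with 0 h. In the CRISPRa arm the sample titles and descriptions name opposite groups, and the groups here follow the descriptions. The cell line label of every sample, the controls and dCas9–VP64 cells included, also gives Cas9 and a knockout of GLIS3, against the other labels, and was not used for grouping.

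The libraries held 2321990 to 10661004 estimated counts (median 5139646). GLIS3, the targeted gene, was at 1.45 to 6.47 CPM (counts scaled to each library's size and scaling factor) in H47_Ctrl, 0.144 to 1.63 in H47_KO, 1.91 to 6.31 in VP64_Ctrl and 16.6 to 36.7 in VP64_A, in the direction the descriptions give. All 10 fibroblast markers were above 1 TPM (transcript abundance corrected for length and library size), whereas 0 of 4 endothelial markers were. Of 5 epithelial markers only KRT8 and KRT18 were above 1 TPM, and their summed level moved with time and with VP64_A. That sum was 2364 to 2955 TPM at 0 h and 546 to 592 TPM at 24 h in H47_Ctrl, and 6568 to 8248 TPM at 0 h and 882 to 1024 TPM at 24 h in VP64_A. Of 4 keratinocyte markers KRT14 and KRT10 were above 1 TPM, of 5 immune markers CD68, and of 4 smooth muscle and pericyte markers CSPG4. Their summed levels at 0 h were 16.5 to 22.3 TPM in VP64_Ctrl and 63.8 to 84.6 TPM in VP64_A for the keratinocyte list, 35.04 to 48.7 and 15.4 to 19.4 TPM for the immune list, and 35.1 to 92.7 and 13.02 to 19.4 TPM for the smooth muscle list. At 0 h the immune list was at 16.6 to 20.1 TPM in H47_Ctrl and 27.3 to 43.6 TPM in H47_KO. None of these 4 pairs of ranges overlapped. The part of these markers in the differences below was not tested. The scaling factors of 3 libraries stood above 1.4 (H47_KO 0 h replicate 3, H47_KO 24 h replicate 3 and VP64_Ctrl 0 h replicate 3, the last at 1.84). Counts without these libraries are given beside the results, without the share of all genes called in those fits.

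Progress through the cell cycle is driven by CDKs, which act only when bound to a cyclin and are held back by inhibitors such as p21 and p15. When the retinoblastoma protein is inactivated, E2F transcription factors switch on the genes of S phase, including the MCM2 to MCM7 helicase that is loaded at replication origins in G1. Later, the B-MYB and FOXM1 factors switch on the genes of G2 and mitosis, many of which carry a CHR element and CCAAT boxes in their promoters. Fibroblasts leave the cycle when starved or crowded and re-enter it when growth factors return. TGFβ is known to restrain proliferation in many cell types, in part through CDKN2B.

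Promoters of 4 members are shown because the replication and mitosis members moved apart in time and because their promoters held different letters. Each sequence is the 160 bases before the annotated start, from RefSeq (GRCh38.p14), read 5′ to 3′ on the gene's strand. Capitals mark matches, on either strand, to the E2F letters TTTCCCGC, TTTGGCGC, TTTCGCGC or TTTGCCGC, the CHR element TTTGAA, or the CCAAT box. MCM6, a helicase subunit, lies on the minus strand at chr2:135876444-135876603 and holds 4 overlapping E2F matches in 2 blocks and 2 CCAAT boxes. UHRF1, which links DNA methylation to replication, lies on the plus strand at chr19:4909341-4909500. CCNB2, encoding cyclin B2, lies on the plus strand at chr15:59104986-59105145, and PLK1, a mitotic kinase, on the plus strand at chr16:23678729-23678888.
MCM6: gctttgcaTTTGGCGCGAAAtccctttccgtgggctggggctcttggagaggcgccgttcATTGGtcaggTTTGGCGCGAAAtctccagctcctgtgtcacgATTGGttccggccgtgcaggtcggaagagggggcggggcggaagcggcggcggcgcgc
UHRF1: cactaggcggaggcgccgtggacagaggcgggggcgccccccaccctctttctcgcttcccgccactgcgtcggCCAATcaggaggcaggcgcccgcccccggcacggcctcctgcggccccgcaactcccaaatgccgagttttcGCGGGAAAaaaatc
CCNB2: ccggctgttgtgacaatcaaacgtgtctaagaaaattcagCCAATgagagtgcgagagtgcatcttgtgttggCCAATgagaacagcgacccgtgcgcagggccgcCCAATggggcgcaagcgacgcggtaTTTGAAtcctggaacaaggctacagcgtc
PLK1: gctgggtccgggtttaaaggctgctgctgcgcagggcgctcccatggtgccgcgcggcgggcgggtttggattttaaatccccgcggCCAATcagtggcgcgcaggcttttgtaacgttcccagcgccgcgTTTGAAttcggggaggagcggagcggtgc
In UHRF1 the E2F match starts 14 bases before the transcription start, and in both CCNB2 and PLK1 the CHR element starts 29 bases before it.

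Promoter entries were found for 45 of the 56 members, and each was searched from 250 bases before to 50 bases after the start. The E2F letters were held by 10 of the 16 replication members with an entry (62.5%) and by 2 of 23 mitosis members (8.7%), compared with 3.31% of all 35116 RefSeq promoters. The CHR element was held by 1 of 16 replication members (6.25%) and by 16 of 23 mitosis members (69.6%), compared with 15.2% of all promoters. CCAAT boxes were held by 62.5% of the replication members and 78.3% of the mitosis members, against 34.6% of all promoters. A CHR element together with a CCAAT box was found in 12 of 23 mitosis members (52.2%), 6.25% of the replication members and 5.9% of all promoters. These matches describe letters in a window and were not tested for binding.

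To determine how the members changed during stimulation, each time was compared with 0 h of the same cells. Fold changes are on the log2 scale with their standard error, and adjusted p is from edgeR's quasi-likelihood test with Benjamini-Hochberg adjustment over all genes tested. A gene is called when adjusted p is under 0.05. The 3 comparisons of 1 group share its 0 h libraries. Members named below are those picked by a size rule in each comparison, plus MKI67, CCND1, CDKN1A and E2F1. Any other member or comparison named was chosen after its values were seen.

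At 6 and 12 h more members were called lower than higher in all 4 groups, and at 24 h more were called higher than lower in all 4. In H47_Ctrl, 2 members rose and 9 fell at 6 h (20% of members, against 15.9% of all genes called), 4 rose and 19 fell at 12 h (41.8% against 19.6%), and 6 rose and 0 fell at 24 h (10.9% against 10.3%). In H47_KO, 4 rose and 13 fell at 6 h (30.9% against 23.9%), 5 rose and 21 fell at 12 h (47.3% against 27.4%), and 13 rose and 8 fell at 24 h (38.2% against 15.8%). The called share of members thus stood furthest above that of all genes at 12 h in H47_Ctrl and at 24 h in H47_KO.

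In VP64_Ctrl, 6 members rose and 11 fell at 6 h (30.9% against 28.8%), 4 rose and 9 fell at 12 h (23.6% against 26.8%), and 20 rose and 4 fell at 24 h (43.6% against 16%). In VP64_A, 3 rose and 11 fell at 6 h (25.5% against 17.4%), 6 rose and 14 fell at 12 h (36.4% against 19.7%), and 13 rose and 1 fell at 24 h (25.5% against 13.6%). The share of members called was close to that of all genes at 6 and 12 h in VP64_Ctrl and at 24 h in H47_Ctrl. Median log2 fold changes of the 55 members at 6, 12 and 24 h were -0.19, -0.35 and 0.11 in H47_Ctrl, -0.17, -0.37 and 0.18 in H47_KO, 0.00, -0.10 and 0.39 in VP64_Ctrl, and -0.22, -0.17 and 0.29 in VP64_A, whereas the median of all genes lay between -0.10 and 0.02 in these 12 comparisons.

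Members called in all 4 groups were CDKN2B and UBE2C (higher) and MCM2, CCNB2 and KIF20A (lower) at 6 h. At 12 h they were CDC6 (higher) and CDKN3, CCNB2, BUB1B and KIF20A (lower). At 24 h they were GMNN, CDC45 and FEN1, all higher. Log2 fold changes of 28 members were below 0 in all 4 groups at 12 h, and those of 24 members were above 0 in all 4 groups at 24 h. Agreement across the 4 groups was not counted over all genes, so these numbers have no baseline. The map of fold changes shows that the members that were low at 12 h lie mostly in the mitotic rows. Members called higher at 24 h lie mostly in the replication rows in H47_Ctrl, H47_KO and VP64_Ctrl. In VP64_A 6 of the 13 members called higher at 24 h were replication members. At 24 h 19 and 22 of the 28 mitosis members also lay above 0 in VP64_Ctrl and VP64_A.

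**Figure D1:**
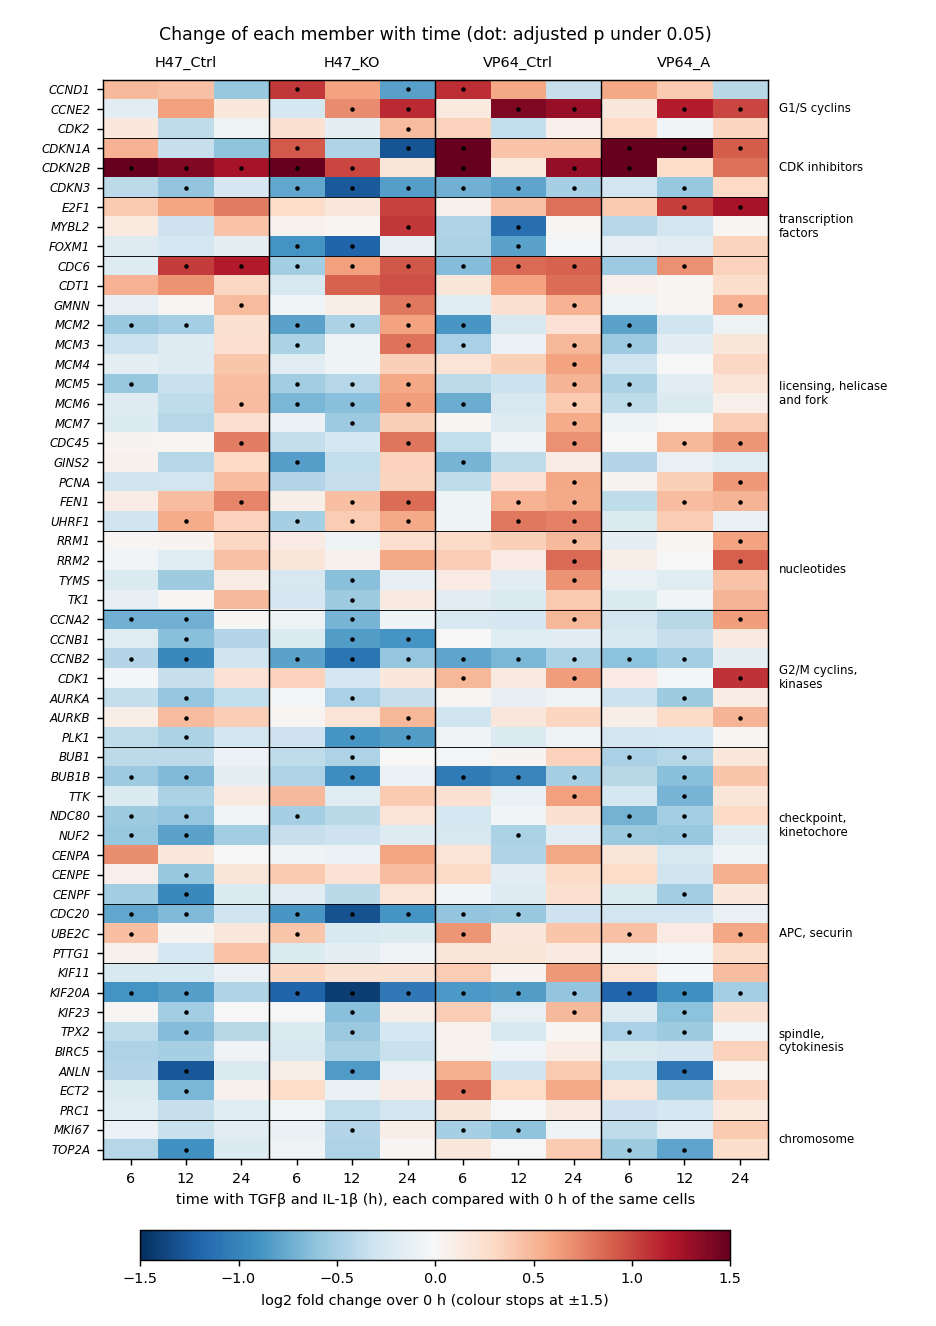
Log2 fold change of each of the 55 tested members (rows, grouped by role) at 6, 12 and 24 h over 0 h of the same cells (columns). Red is higher, blue lower, the colour stops at ±1.5, and a dot marks adjusted p under 0.05. KIF20A and CCNB2 were called lower at 6 and 12 h in all 4 groups, and GMNN, CDC45 and FEN1 higher at 24 h in all 4.

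The G1/S cyclins moved at different times. CCND1 encodes cyclin D1, which partners CDK4 and CDK6 early in G1. In H47_KO it was at 2089, 1974 and 1344 CPM at 0 h and 3416, 4589 and 3274 CPM at 6 h. The ranges did not overlap, and CCND1 rose (log2 fold change 1.06 ± 0.25, adjusted p = 0.0023). In VP64_Ctrl it was at 1389, 1501 and 1170 CPM at 0 h and 2548, 2655 and 3558 CPM at 6 h, again without overlap (log2 fold change 1.11 ± 0.23, adjusted p = 0.000373). The 6 h values were log2 fold change 0.49 ± 0.25, adjusted p = 0.216 in H47_Ctrl and log2 fold change 0.58 ± 0.22, adjusted p = 0.0698 in VP64_A, neither of which was called.

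At 24 h every CCND1 library lay below every 0 h library of its group in H47_Ctrl, H47_KO and VP64_A. The 24 h values were 1174, 1102 and 789.7 CPM in H47_KO, where CCND1 fell (log2 fold change -0.82 ± 0.25, adjusted p = 0.0235). This call was lost without H47_KO 0 h replicate 1 (adjusted p = 0.109), 0 h replicate 2 (0.0889) or 24 h replicate 3 (0.128). The other 24 h differences were -0.57 ± 0.25, adjusted p = 0.174 in H47_Ctrl, -0.35 ± 0.22, adjusted p = 0.327 in VP64_Ctrl and -0.42 ± 0.22, adjusted p = 0.245 in VP64_A, and were not called. On log2(TPM + 1) with limma, CCND1 was called lower at 24 h in these 3 groups also, with adjusted p = 1.16e-05, 0.000366 and 0.000456. On that scale, which has no scaling factors, the median of all genes shifted by -0.16, -0.32 and -0.22 in the same comparisons.

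CCNE2 encodes cyclin E2, the CDK2 partner at the entry into S phase. In VP64_Ctrl it was at 6.62, 3.98 and 7.49 CPM at 0 h, 14.2, 16.6 and 16.5 CPM at 12 h and 13.3, 20.7 and 11.3 CPM at 24 h. Every 12 h and 24 h library lay above every 0 h library, and CCNE2 rose at 12 h (log2 fold change 1.4 ± 0.30, adjusted p = 0.000634) and 24 h (log2 fold change 1.31 ± 0.30, adjusted p = 0.00209). In H47_KO it was at 8.49, 9.23 and 10.3 CPM at 0 h and 18.1, 24.6 and 19.3 CPM at 24 h (log2 fold change 1.12 ± 0.24, adjusted p = 0.000798), without overlap. In VP64_A it rose at 12 h (log2 fold change 1.18 ± 0.30, adjusted p = 0.00449) and at 24 h (log2 fold change 1.00 ± 0.31, adjusted p = 0.0242). The 24 h call in VP64_A was lost without VP64_A 0 h replicate 1 (adjusted p = 0.108), 0 h replicate 2 (0.0721) or 24 h replicate 2 (0.235).

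In H47_Ctrl the CCNE2 differences were 0.61 ± 0.24, adjusted p = 0.075 at 12 h and 0.15 ± 0.25, adjusted p = 0.822 at 24 h. H47_Ctrl started higher, at 16.1, 13.5 and 9.99 CPM at 0 h. CDK2, the kinase that cyclins E and A bind, was called once, in H47_KO at 24 h (log2 fold change 0.47 ± 0.16, adjusted p = 0.0365).

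Of the CDK inhibitors, CDKN2B rose at 6 h in all 4 groups and CDKN1A in 3 of them. CDKN2B encodes p15, an inhibitor of CDK4 and CDK6 that TGFβ is known to induce. It was at 1.76, 3.86 and 1.35 CPM at 0 h and 14.1, 9.55 and 6.38 CPM at 6 h in H47_Ctrl (log2 fold change 2.08 ± 0.35, adjusted p = 3.09e-05). In VP64_A it was at 3.69, 2.64 and 3.29 CPM at 0 h and 13.5, 10.5 and 11.6 CPM at 6 h (log2 fold change 1.87 ± 0.35, adjusted p = 0.000154). In all 4 groups every 6 h library lay above every 0 h library, and the gene rose also in H47_KO (log2 fold change 1.78 ± 0.34, adjusted p = 0.000166) and VP64_Ctrl (log2 fold change 1.87 ± 0.37, adjusted p = 0.000287). At 12 h CDKN2B was still higher in H47_Ctrl (log2 fold change 1.39 ± 0.38, adjusted p = 0.00699) and H47_KO (log2 fold change 1.00 ± 0.33, adjusted p = 0.0238), whereas in VP64_Ctrl it was at 1.18, 3.28 and 2.56 CPM (log2 fold change 0.15 ± 0.42, adjusted p = 0.827). CDKN2B is near the filter on low counts, and its 24 h calls in H47_Ctrl (0.0272) and VP64_Ctrl (0.0134) were each lost when any of several libraries was left out, with adjusted p up to 0.151 and 0.132. Without H47_Ctrl 0 h replicate 1 the 12 h call in H47_Ctrl was lost (adjusted p = 0.0527).

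CDKN1A encodes p21, the inhibitor that p53 and TGFβ both induce. In VP64_Ctrl it was at 78.4, 70.1 and 54.8 CPM at 0 h and 211, 399.9 and 359 CPM at 6 h. In VP64_A it was at 26.1, 33.5 and 21.3 CPM at 0 h and 122, 140.0 and 177 CPM at 6 h. Neither pair of ranges overlapped, and these were the largest rises of any member (log2 fold change 2.25 ± 0.23, adjusted p = 2.59e-09 in VP64_Ctrl and log2 fold change 2.44 ± 0.24, adjusted p = 1.02e-09 in VP64_A). CDKN1A stayed higher at 12 h in VP64_A, at 85.6, 62.6 and 84.2 CPM (log2 fold change 1.51 ± 0.24, adjusted p = 1.07e-05), and at 24 h (log2 fold change 0.91 ± 0.24, adjusted p = 0.00746), the latter call being lost without VP64_A 0 h replicate 3 (adjusted p = 0.0626) or 24 h replicate 1 (0.0508).

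In the CRISPRko arm CDKN1A was higher at 0 h than in the CRISPRa arm and spread more widely, at 268, 311 and 354 CPM in H47_Ctrl and 762, 517 and 253 CPM in H47_KO. The arms were fitted separately and differ in clone and vector, so no test was made between them. At 6 h CDKN1A was at 229.8, 567 and 542 CPM in H47_Ctrl (log2 fold change 0.52 ± 0.31, adjusted p = 0.307) and 792, 1336 and 774 CPM in H47_KO (log2 fold change 0.92 ± 0.32, adjusted p = 0.0319). The H47_KO call was lost without 0 h replicate 2 (adjusted p = 0.0751), 0 h replicate 3 (0.169) or 6 h replicate 2 (0.196). At 24 h in H47_KO it was at 277, 233 and 116 CPM and had fallen (log2 fold change -1.29 ± 0.32, adjusted p = 0.00398), which was lost without 0 h replicate 1 (adjusted p = 0.0759). The H47_Ctrl value at 24 h was -0.60 ± 0.32, adjusted p = 0.287.

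CDKN3, a phosphatase that acts on CDKs and peaks in mitosis, moved the other way from the inhibitors. It was at 112, 77.9 and 69.1 CPM at 0 h and 35.8, 33.6 and 39.2 CPM at 12 h in H47_KO (log2 fold change -1.26 ± 0.17, adjusted p = 4e-07). All 12 h libraries were below all 0 h libraries in the 4 groups, and it was called lower at 12 h in each, with log2 fold changes of -0.59 in H47_Ctrl, -0.79 in VP64_Ctrl and -0.57 in VP64_A.

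**Figure D2:**
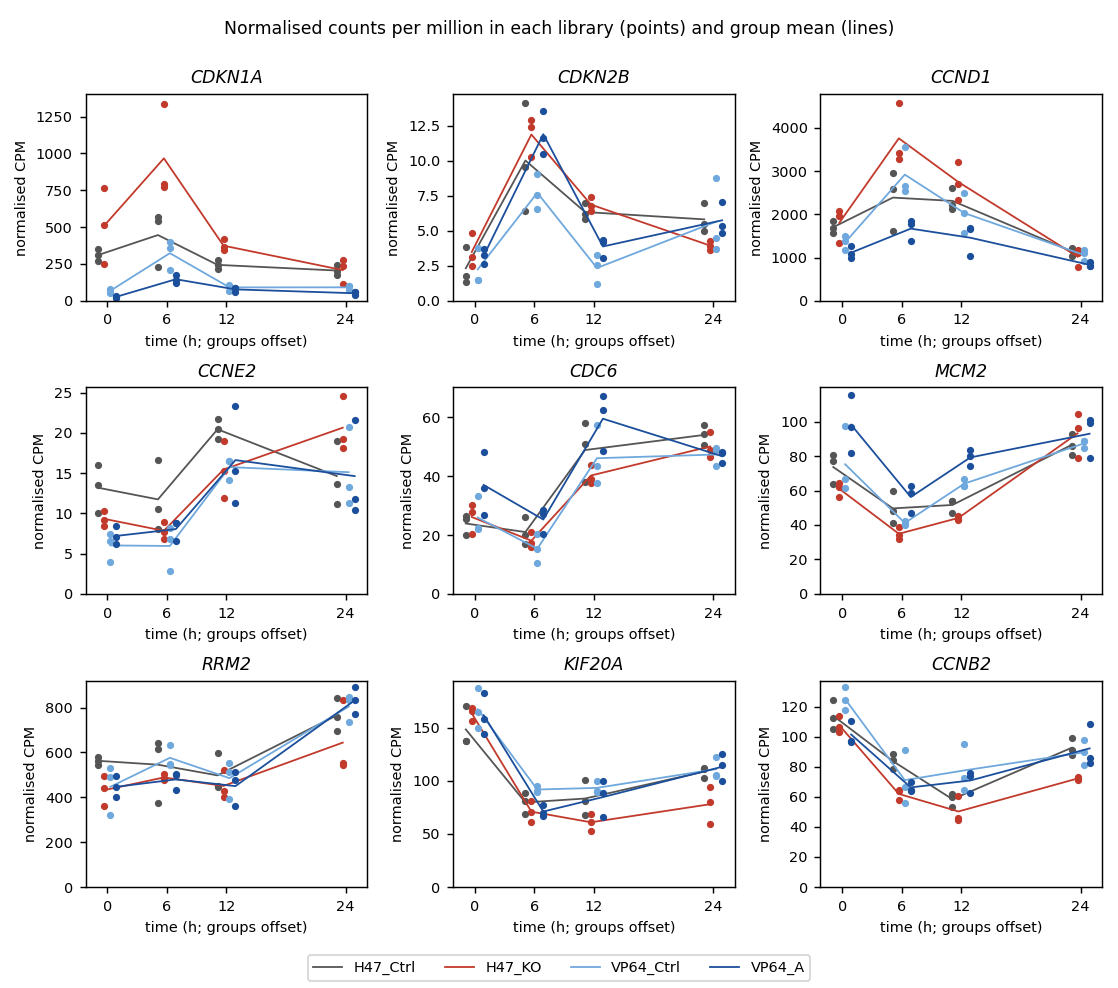
Normalized CPM (vertical axes, from 0) against hours with TGFβ and IL-1β for 9 members, with 1 point for each library and lines through the group means. CDKN1A, CDKN2B and CCND1 peaked at 6 h, CCNE2 and CDC6 were called higher at 12 h in 3 and 4 of the 4 groups, MCM2 was lowest at 6 h, RRM2 was highest at 24 h, and KIF20A and CCNB2 lay below their 0 h levels at 6 and 12 h.

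Of the transcription factors, E2F1 was scarce and variable. In VP64_A it was at 3.43, 3.90 and 3.29 CPM at 0 h, 3.84, 11.3 and 5.39 CPM at 12 h and 6.01, 12 and 7.58 CPM at 24 h. It was called higher at 12 h (log2 fold change 1.04 ± 0.37, adjusted p = 0.042) and at 24 h (log2 fold change 1.23 ± 0.37, adjusted p = 0.0216), and replicate 2 held the highest value at both times. Without 12 h replicate 2 the 12 h difference was 0.39 (adjusted p = 0.59), and without 24 h replicate 2 the 24 h difference was 0.95 (adjusted p = 0.15). At 24 h E2F1 was above 0 h also in H47_Ctrl (0.78 ± 0.41, adjusted p = 0.284), H47_KO (1.02 ± 0.40, adjusted p = 0.0782) and VP64_Ctrl (0.83 ± 0.35, adjusted p = 0.108), none of which was called.

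MYBL2 encodes B-MYB, an E2F target that in turn drives G2/M genes. In H47_KO it was at 4.42, 5.19 and 6.19 CPM at 0 h and 9.77, 10.6 and 12.6 CPM at 24 h, with no overlap (log2 fold change 1.06 ± 0.28, adjusted p = 0.00704). In VP64_Ctrl it was at 12.5, 7.79 and 15.6 CPM at 0 h and 3.16, 7.11 and 5.97 CPM at 12 h (log2 fold change -1.13 ± 0.32, adjusted p = 0.00832), again without overlap, and this call was lost without 12 h replicate 1 (adjusted p = 0.0766). FOXM1, a driver of mitotic genes, was at 33.6, 33.6 and 32.8 CPM at 0 h in H47_KO, 17.2, 12.9 and 22.6 CPM at 6 h and 11.1, 17.6 and 14.6 CPM at 12 h. It fell at 6 h (log2 fold change -0.90 ± 0.20, adjusted p = 0.00118) and at 12 h (log2 fold change -1.20 ± 0.19, adjusted p = 1.08e-05), and its 24 h value was 25.2, 27 and 38.2 CPM. In VP64_Ctrl FOXM1 fell at 12 h (log2 fold change -0.81 ± 0.19, adjusted p = 0.00202), whereas in H47_Ctrl and VP64_A its log2 fold changes at 12 h were -0.26 ± 0.20 and -0.16 ± 0.20.

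Of the 18 replication members, 2, 7, 5 and 4 fell at 6 h and 5, 9, 14 and 6 rose at 24 h in H47_Ctrl, H47_KO, VP64_Ctrl and VP64_A. Of all genes, 5.6%, 10.8%, 12.6% and 5.93% fell at 6 h and 6.53%, 9.07%, 10.4% and 9% rose at 24 h. MCM2, a subunit of the MCM helicase, was called lower at 6 h in all 4 groups and higher at 24 h in 1, H47_KO. In H47_KO it was at 56.4, 64.6 and 62.1 CPM at 0 h, 38.8, 31.7 and 34.2 CPM at 6 h, 45.5, 43.7 and 43.1 CPM at 12 h and 96.5, 104 and 78.8 CPM at 24 h. The 6 h and 12 h libraries all lay below 0 h and the 24 h libraries all above it (log2 fold changes -0.80, -0.47 and 0.60, with adjusted p = 0.000242, 0.0164 and 0.00289). In VP64_Ctrl it was at 61.5, 97.4 and 66.8 CPM at 0 h and 40.2, 42.1 and 41.1 CPM at 6 h (log2 fold change -0.87 ± 0.17, adjusted p = 0.000188). In VP64_A it was at 81.7, 97.1 and 116 CPM at 0 h and 47.1, 58.7 and 62.9 CPM at 6 h (log2 fold change -0.80 ± 0.16, adjusted p = 0.000467). MCM2 fell at 6 h in H47_Ctrl too (log2 fold change -0.56 ± 0.15, adjusted p = 0.00603).

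Of the other helicase subunits, MCM5 was at 165, 161 and 184 CPM at 0 h and 97, 114 and 133 CPM at 6 h in H47_Ctrl (log2 fold change -0.57 ± 0.16, adjusted p = 0.0135). That call was lost without H47_Ctrl 0 h replicate 3 (adjusted p = 0.0632) or 6 h replicate 1 (0.103). MCM6, whose promoter is printed above, was at 49.9, 51.3 and 59.2 CPM at 0 h, 28.5, 38.2 and 33.6 CPM at 6 h and 82.8, 88.9 and 77.4 CPM at 24 h in H47_KO, falling and then rising (-0.69 and 0.63, adjusted p = 0.00145 and 0.00198). At 24 h MCM6 was called higher in H47_Ctrl, H47_KO and VP64_Ctrl, MCM3 and MCM5 in H47_KO and VP64_Ctrl, and MCM4 and MCM7 in VP64_Ctrl, whereas in VP64_A none of MCM2 to MCM7 was called, with log2 fold changes of -0.07 for MCM2 to 0.37 for MCM7.

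CDC6, which loads the helicase onto origins, was called higher at 12 h in all 4 groups and at 24 h in 3. It was at 20, 25.3 and 26.5 CPM at 0 h, 37.9, 57.9 and 50.8 CPM at 12 h and 57.3, 50.5 and 54.2 CPM at 24 h in H47_Ctrl, where it rose at 12 h (log2 fold change 1.04 ± 0.18, adjusted p = 4.9e-05) and 24 h (log2 fold change 1.19 ± 0.18, adjusted p = 8.09e-06). In VP64_Ctrl it was at 22.2, 22.1 and 33.4 CPM at 0 h, 20.5, 15.1 and 10.4 CPM at 6 h and 37.5, 57.3 and 43.5 CPM at 12 h. There the 6 h libraries were below and the 12 h libraries above all 0 h libraries (-0.65 and 0.85, adjusted p = 0.0315 and 0.00257). In H47_KO CDC6 also fell at 6 h (-0.53) and rose at 12 h (0.62) and 24 h (log2 fold change 0.94 ± 0.17, adjusted p = 0.00013). In VP64_A it rose at 12 h (log2 fold change 0.69 ± 0.21, adjusted p = 0.0157) and its 24 h difference was 0.35 ± 0.21, adjusted p = 0.308. CDT1, the partner of CDC6, was called in no group, with log2 fold changes of 0.68 ± 0.45 at 12 h in H47_Ctrl and 0.96 ± 0.43 at 24 h in H47_KO.

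The members called higher at 24 h in all 4 groups belong to licensing control and the fork. GMNN encodes geminin, which blocks relicensing. It was at 43.6, 38.1 and 46.7 CPM at 0 h and 64.7, 56.1 and 57.3 CPM at 24 h in H47_Ctrl (log2 fold change 0.48 ± 0.15, adjusted p = 0.0415), and at 38.7, 35 and 33.2 CPM and 54.8, 63.7 and 66.1 CPM in H47_KO (log2 fold change 0.79 ± 0.15, adjusted p = 0.000258). The ranges did not overlap in any group, and the differences in VP64_Ctrl and VP64_A were 0.53 ± 0.13 and 0.52 ± 0.13. The H47_Ctrl call was lost in 5 of 6 fits that left out 1 library (adjusted p up to 0.205, without 0 h replicate 2), the exception being the fit without 0 h replicate 3.

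CDC45, part of the active helicase, was at 35, 27.2 and 32.7 CPM at 0 h and 44.9, 52.3 and 64.2 CPM at 24 h in H47_Ctrl (log2 fold change 0.77 ± 0.17, adjusted p = 0.00262). Its 24 h rises were 0.80 ± 0.17 in H47_KO, 0.68 ± 0.16 in VP64_Ctrl and 0.66 ± 0.16 in VP64_A. FEN1, the nuclease that trims Okazaki fragments, was at 94.4, 95.6 and 114 CPM at 0 h and 189, 174 and 141 CPM at 24 h in H47_Ctrl (log2 fold change 0.73 ± 0.17, adjusted p = 0.00386). It rose by 0.83 ± 0.17 in H47_KO, 0.57 ± 0.17 in VP64_Ctrl and 0.51 ± 0.17 in VP64_A, and 24 h lay above 0 h without overlap in the 4 groups for both genes.

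UHRF1 was at 58.5, 79.9 and 46.1 CPM at 0 h, 94.3, 114 and 112 CPM at 12 h and 106, 126 and 82.3 CPM at 24 h in VP64_Ctrl, and was called higher at both times (0.79 and 0.76, adjusted p = 0.00234 and 0.00561). Without VP64_Ctrl 0 h replicate 3, the library with the largest scaling factor, the 24 h difference was 0.57 (adjusted p = 0.0553), and without 24 h replicate 2 it was 0.58 (adjusted p = 0.064). In VP64_A UHRF1 was at 65.8, 92.9 and 76.9 CPM at 0 h and 66.8, 72.1 and 80.7 CPM at 24 h, with overlapping ranges (log2 fold change -0.10 ± 0.19, adjusted p = 0.825). PCNA, the sliding clamp of the fork, was called higher at 24 h in VP64_Ctrl (0.58 ± 0.17) and VP64_A (0.65 ± 0.17), and GINS2, part of the active helicase, was called lower at 6 h in H47_KO (-0.83 ± 0.23) and VP64_Ctrl (-0.70 ± 0.21).

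RRM1, RRM2 and TYMS, which make deoxynucleotides, were called higher at 24 h in the CRISPRa arm (TYMS in VP64_Ctrl) and not in the CRISPRko arm. RRM2, the regulated subunit of ribonucleotide reductase, was at 445, 401 and 493 CPM at 0 h and 833, 770.1 and 892 CPM at 24 h in VP64_A, and at 489, 529 and 321 CPM and 847, 832 and 734 CPM in VP64_Ctrl. The 24 h ranges lay above the 0 h ranges in all 4 groups, and RRM2 rose in VP64_A (log2 fold change 0.90 ± 0.19, adjusted p = 0.00107) and VP64_Ctrl (log2 fold change 0.85 ± 0.19, adjusted p = 0.00183). The values in H47_Ctrl and H47_KO were 0.44 ± 0.21, adjusted p = 0.215 and 0.58 ± 0.21, adjusted p = 0.0579, and the difference between the arms was not tested. RRM1, the large subunit, rose at 24 h in VP64_Ctrl (0.48 ± 0.17) and VP64_A (0.61 ± 0.17). TYMS, which makes thymidylate, rose at 24 h in VP64_Ctrl (0.68 ± 0.17), and TYMS and TK1, the salvage kinase for thymidine, fell at 12 h in H47_KO (-0.62 ± 0.21 and -0.54 ± 0.17).

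Of the 7 G2/M cyclins and mitotic kinases, 5, 5, 1 and 2 fell at 12 h in H47_Ctrl, H47_KO, VP64_Ctrl and VP64_A, and 1 rose, AURKB in H47_Ctrl. Of all genes, 8.27%, 13%, 11.5% and 7.1% were called lower at 12 h, and the 1 of 7 in VP64_Ctrl was near that share. CCNB2 was at 112, 105 and 124 CPM at 0 h, 84.4, 78.6 and 88.6 CPM at 6 h, 53.3, 62.1 and 59.8 CPM at 12 h and 91, 87.9 and 99.4 CPM at 24 h in H47_Ctrl. In H47_KO it was at 106, 114 and 103 CPM at 0 h and 60.3, 46.2 and 44.4 CPM at 12 h. All 12 h libraries lay below all 0 h libraries in the 4 groups, with log2 fold changes of -0.96 in H47_Ctrl (adjusted p = 2.09e-06), -1.09 in H47_KO (9.48e-08), -0.69 in VP64_Ctrl (0.00187) and -0.51 in VP64_A (0.0258). CCNB1, encoding cyclin B1, fell at 12 h in H47_Ctrl (-0.63 ± 0.20) and H47_KO (-0.84 ± 0.20), and at 24 h in H47_KO (-0.89 ± 0.20). In VP64_Ctrl and VP64_A its 12 h differences were -0.18 ± 0.18 and -0.34 ± 0.18, neither called.

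CCNA2, encoding cyclin A2 of S and G2 phase, was at 227, 215 and 253 CPM at 0 h and 105, 141 and 175 CPM at 6 h in H47_Ctrl (log2 fold change -0.72 ± 0.18, adjusted p = 0.00451), a call that was lost without 6 h replicate 1 (adjusted p = 0.0607). It fell at 12 h in H47_Ctrl (-0.72) and H47_KO (-0.70), and at 24 h it rose in VP64_Ctrl (0.50 ± 0.17) and VP64_A (0.62 ± 0.17). CDK1, the kinase that starts mitosis, was at 124, 103 and 119 CPM at 0 h, 121, 131 and 126 CPM at 6 h, 134, 105 and 102 CPM at 12 h and 235, 252 and 249 CPM at 24 h in VP64_A. It was not called at 6 or 12 h, and at 24 h every library lay above every earlier one (log2 fold change 1.09 ± 0.14, adjusted p = 5.62e-07). It rose at 24 h in VP64_Ctrl as well (0.62 ± 0.14), and its 24 h differences in H47_Ctrl and H47_KO were 0.22 ± 0.15 and 0.16 ± 0.15. AURKA and PLK1, kinases of spindle assembly, fell at 12 h in H47_Ctrl (-0.58 ± 0.17 and -0.47 ± 0.17) and H47_KO (-0.49 ± 0.17 and -0.88 ± 0.17), and AURKA also in VP64_A (-0.54 ± 0.14). AURKB, the kinase of the chromosomal passenger complex, rose at 12 h in H47_Ctrl (0.47 ± 0.14) and at 24 h in H47_KO (0.50 ± 0.13) and VP64_A (0.51 ± 0.15).

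Among the checkpoint and kinetochore genes, BUB1B encodes BubR1, which delays anaphase. It was at 66.8, 75.1 and 91 CPM at 0 h, 38.5, 39.1 and 33 CPM at 6 h and 48.1, 27.5 and 41.5 CPM at 12 h in VP64_Ctrl, and fell at 6 h (log2 fold change -1.05 ± 0.18, adjusted p = 2.99e-05) and 12 h (log2 fold change -0.99 ± 0.17, adjusted p = 4.99e-05). NDC80, an outer kinetochore protein that binds microtubules, was at 81.4, 69.9 and 90.8 CPM at 0 h and 49, 53.8 and 44.8 CPM at 6 h in VP64_A, without overlap (log2 fold change -0.71 ± 0.14, adjusted p = 0.000375). Its partner NUF2 fell at 12 h in H47_Ctrl (-0.80 ± 0.21), VP64_Ctrl (-0.48 ± 0.18) and VP64_A (-0.57 ± 0.18). CENPF, a kinetochore protein of G2 and mitosis, fell at 12 h in H47_Ctrl (log2 fold change -0.96 ± 0.20, adjusted p = 0.000398) and VP64_A (-0.52 ± 0.18). CENPA, the centromeric histone, was near the filter and was never called.

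The anaphase-promoting complex (APC) genes split. CDC20, an APC activator, was at 613, 526 and 374 CPM at 0 h and 202, 183 and 226 CPM at 12 h in H47_KO, with no overlap (log2 fold change -1.31 ± 0.20, adjusted p = 4.34e-06). It fell at 6 h in H47_Ctrl (log2 fold change -0.78 ± 0.20, adjusted p = 0.00425), a call that was lost without 0 h replicate 3 (adjusted p = 0.0539), at 12 h in H47_Ctrl (-0.67 ± 0.20), and at 6 and 12 h in VP64_Ctrl (-0.60 ± 0.18 and -0.57 ± 0.18). In VP64_A its differences were -0.28 ± 0.18 at 6 h and -0.28 ± 0.18 at 12 h. UBE2C, the ubiquitin-conjugating enzyme that works with the APC, was at 121, 116 and 91.6 CPM at 0 h and 160.1, 188 and 175 CPM at 6 h in VP64_Ctrl. It rose at 6 h in all 4 groups (log2 fold changes 0.45, 0.42, 0.67 and 0.44 in H47_Ctrl, H47_KO, VP64_Ctrl and VP64_A), when CDC20 was lower or not called. On log2(TPM + 1), without the scaling factors, the median of all genes shifted at 6 h by -0.43 in H47_KO and -0.65 in VP64_Ctrl. These shifts are similar in size to the rises of UBE2C there. PTTG1, encoding securin, was never called.

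Of the spindle and cytokinesis genes, KIF20A was the member called most often, lower in 11 of the 12 comparisons with 0 h. KIF20A is a kinesin of the midzone in cytokinesis. In H47_KO it was at 169, 157 and 165 CPM at 0 h, 80.9, 61.4 and 70.7 CPM at 6 h, 61.2, 68.6 and 53.3 CPM at 12 h and 94, 80.4 and 59.6 CPM at 24 h. It fell at 6 h (log2 fold change -1.20 ± 0.17, adjusted p = 1.61e-06), at 12 h (log2 fold change -1.42 ± 0.17, adjusted p = 4.13e-08) and at 24 h (log2 fold change -1.07 ± 0.16, adjusted p = 8.99e-06). In VP64_A it was at 144, 158 and 183 CPM at 0 h and 69.4, 66.6 and 77.4 CPM at 6 h (log2 fold change -1.19 ± 0.15, adjusted p = 4.12e-07). At 6 h it fell by similar amounts in H47_Ctrl (-0.90 ± 0.16) and VP64_Ctrl (-0.86 ± 0.15), and the 6 h and 12 h libraries lay below the 0 h libraries in all 4 groups.

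ANLN encodes anillin, a scaffold of the contractile ring. It was at 392, 423 and 373 CPM at 0 h and 149, 163 and 181 CPM at 12 h in H47_Ctrl (log2 fold change -1.27 ± 0.25, adjusted p = 0.000315), and at 340.3, 448 and 376 CPM and 219.5, 156 and 177 CPM in VP64_A (log2 fold change -1.08 ± 0.25, adjusted p = 0.00171). In both groups the 12 h libraries lay far below 0 h, and at 24 h the levels were back at 352, 360.3 and 312 CPM in H47_Ctrl and 402, 383 and 405 CPM in VP64_A. KIF23, the midzone kinesin of centralspindlin, and TPX2, which activates AURKA, fell at 12 h in H47_Ctrl (-0.53 ± 0.16 and -0.65 ± 0.20), H47_KO (-0.63 ± 0.16 and -0.55 ± 0.20) and VP64_A (-0.61 ± 0.15 and -0.53 ± 0.16). ECT2, which activates RhoA at the cleavage site, rose at 6 h in VP64_Ctrl (0.81 ± 0.24) and fell at 12 h in H47_Ctrl (-0.69 ± 0.18). KIF11, BIRC5 and PRC1 were not called with time in any group.

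MKI67 encodes Ki-67, the antigen used to mark cycling cells. It was at 133, 121 and 152 CPM at 0 h, 96.3, 78.4 and 92.9 CPM at 12 h and 116, 104 and 163 CPM at 24 h in VP64_Ctrl, and fell at 6 h (-0.50 ± 0.18) and 12 h (-0.60 ± 0.18). At 24 h over 0 h its differences were -0.17 ± 0.16, adjusted p = 0.63 in H47_Ctrl, 0.10 ± 0.15, adjusted p = 0.732 in H47_KO, -0.08 ± 0.18, adjusted p = 0.829 in VP64_Ctrl and 0.39 ± 0.18, adjusted p = 0.161 in VP64_A, so MKI67 was not called at 24 h while replication members were. TOP2A, the topoisomerase that untangles sister chromatids, was at 419.9, 434 and 446 CPM at 0 h and 229.5, 212 and 252 CPM at 12 h in H47_Ctrl (-0.91 ± 0.19) and at 327, 336 and 406 CPM and 233, 199.9 and 184 CPM in VP64_A (-0.80 ± 0.17), called lower in both.

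The replication and mitosis members can be set side by side by their counts. At 24 h, 5 of 18 replication members were called higher in H47_Ctrl, 9 in H47_KO, 14 in VP64_Ctrl and 6 in VP64_A, and 0 were called lower. Of all genes, 6.53%, 9.07%, 10.4% and 9% were called higher in the same comparisons. Log2 fold changes of 18, 17, 18 and 15 of the 18 were above 0, with medians of 0.43, 0.58, 0.56 and 0.36. Of the 28 mitosis members 0, 1, 4 and 4 were called higher at 24 h and 0, 5, 3 and 1 lower, where 3.73%, 6.78%, 5.57% and 4.55% of all genes were called lower.

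At 12 h, 17 of 28 mitosis members were called lower in H47_Ctrl, 13 in H47_KO, 6 in VP64_Ctrl and 13 in VP64_A, where 8.27%, 13%, 11.5% and 7.1% of all genes were. Their medians were -0.57, -0.45, -0.14 and -0.42, and 25, 25, 20 and 26 of the 28 lay below 0. The replication members at 12 h split, with 2, 3, 3 and 3 called higher and 1, 6, 0 and 0 called lower. At 12 h 11.3%, 14.4%, 15.3% and 12.6% of all genes were called higher. At 6 h no replication member was called higher and 2, 7, 5 and 4 were called lower, where 10.3%, 13.2%, 16.2% and 11.4% of all genes were called higher and 5.6%, 10.8%, 12.6% and 5.93% lower. As these are bulk libraries, a smaller share of cells in S phase or mitosis and less of these RNAs per cell cannot be told apart.

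**Figure D3:**
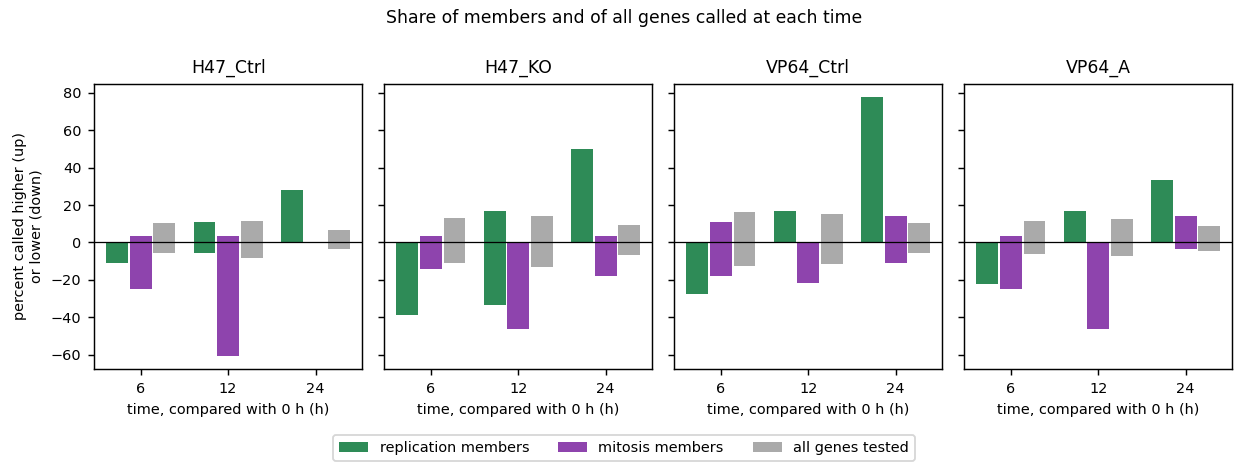
Percent of the 18 replication members (green), the 28 mitosis members (purple) and all genes tested (grey) called higher (bars up) or lower (bars down) at 6, 12 and 24 h over 0 h in each group. The green bars point up at 24 h in the 4 groups (5, 9, 14 and 6 genes), and the purple bars are longest downward at 12 h (17, 13, 6 and 13 genes).

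Lists of further genes of the same pathways were read in the same fits. Of 28 other replication genes (polymerases, replication factor C, origin and histone chaperone genes), 3, 11, 3 and 6 were called higher and 0 lower at 24 h in H47_Ctrl, H47_KO, VP64_Ctrl and VP64_A. Of all genes, 6.53%, 9.07%, 10.4% and 9% were called higher in these comparisons. The 3 of 28 in VP64_Ctrl were thus close to the share of all genes. Examples are CLSPN, which carries checkpoint signals at forks and was called in all 4 groups, and POLD1, the catalytic subunit of polymerase delta, called in H47_Ctrl, H47_KO and VP64_A. At 6 h, 5, 8, 11 and 6 of these 28 were called lower and 1, 0, 0 and 0 higher. At that time 5.6%, 10.8%, 12.6% and 5.93% of all genes were called lower. Of 42 other mitosis genes in the table, 15, 14, 13 and 7 were called lower at 12 h and 0, 0, 1 and 1 higher. Of all genes, 8.27%, 13%, 11.5% and 7.1% were called lower at 12 h. At 24 h 1, 1, 1 and 0 of these mitosis genes were called lower and 0, 2, 4 and 5 higher. At 24 h 3.73%, 6.78%, 5.57% and 4.55% of all genes were called lower. DLGAP5, a spindle microtubule protein, was called lower at 12 h in all 4 groups, and TACC3, a spindle pole protein, in H47_Ctrl, H47_KO and VP64_A.

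Of 31 other G1 and checkpoint regulators, 27 were tested, and 4, 5, 6 and 4 rose at 6 h in H47_Ctrl, H47_KO, VP64_Ctrl and VP64_A. Of all genes, 10.3%, 13.2%, 16.2% and 11.4% were called higher in these comparisons. The counts of these regulators were thus not far above the share of all genes. CCND3 and CDK6, a D cyclin and its kinase, and GADD45A, a stress-induced growth inhibitor, rose in each of the 4 groups. MYC rose in H47_Ctrl, H47_KO and VP64_Ctrl. At 6 h 2, 5, 0 and 0 of these regulators fell, where 5.6%, 10.8%, 12.6% and 5.93% of all genes were called lower.

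The scale of the comparison matters for the counts. When log2(TPM + 1) was tested with limma without the scaling factors, the median of all genes shifted at 6, 12 and 24 h by -0.11, -0.15 and -0.16 in H47_Ctrl, -0.43, -0.25 and 0.13 in H47_KO, -0.65, -0.51 and -0.32 in VP64_Ctrl, and -0.21, -0.22 and -0.22 in VP64_A. On that scale 0 members were higher and 21 lower at 12 h and 0 and 4 at 24 h in H47_Ctrl (13.1% and 5.81% of all genes called). In H47_KO 3 were higher and 30 lower at 6 h and 1 and 23 at 12 h (30.7% and 17.3% of all genes). In VP64_Ctrl 2 were higher and 40 lower at 6 h, 0 and 35 at 12 h, and 1 and 7 at 24 h (56.3%, 42.9% and 18.3% of all genes). In VP64_A 1 was higher and 19 lower at 12 h and 2 and 2 at 24 h (12.8% and 10.6% of all genes). Relative to the shift of all genes, the replication medians at 24 h were 0.37, 0.59, 0.50 and 0.29, with 18, 17, 18 and 14 of 18 above the median gene. The mitosis medians at 12 h were likewise -0.58, -0.42, -0.22 and -0.49 relative to all genes, with 25, 24, 23 and 25 of 28 below the median gene. At 24 h the mitosis medians in VP64_Ctrl and VP64_A were 0.23 and 0.21 in the main comparison, and turned to -0.14 and -0.06 on the TPM scale before the shift was taken off.

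Without the 3 libraries with scaling factors above 1.4, 12 members rose and 8 fell at 24 h in H47_KO, and 3 rose and 21 fell at 12 h. In VP64_Ctrl, which loses its 0 h replicate 3, 11 rose and 2 fell at 24 h in place of 20 and 4. Leaving out VP64_Ctrl 24 h replicate 2 gave 11 called members at 24 h, in place of 24. In H47_Ctrl, 5 members were called at 6 h without 0 h replicate 3, and 13 at 12 h without 12 h replicate 2. In H47_KO, 10 were called at 6 h and 16 at 12 h without 0 h replicate 2. In VP64_A, 7 were called at 6 h and 10 at 12 h without 0 h replicate 3, and 7 at 24 h without 0 h replicate 1. In H47_Ctrl at 24 h, 3 were called without 0 h replicate 1, 24 h replicate 2 or 24 h replicate 3. The share of all genes called is not given for the fits in this paragraph, so these counts have no baseline.

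To determine whether the GLIS3 knockout changed these genes, H47_KO was compared with H47_Ctrl at each time. Few differences were called. At 0 h 1 member was lower and 0 were higher (1.82%, against 0.301% of all genes called). It was KIF11, the kinesin that separates spindle poles, at 48.6, 46.5 and 51.1 CPM in H47_Ctrl and 30.1, 24.5 and 30.1 CPM in H47_KO, with no overlap (log2 fold change -0.79 ± 0.18, adjusted p = 0.0469). The call sat at the threshold. Adjusted p was 0.0514 without H47_KO 0 h replicate 3 and 0.101 to 0.252 without any of the other 5 libraries, and KIF11 was not called on the TPM scale.

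At 6, 12 and 24 h edgeR called 0 members, against 0.319%, 0.0821% and 0.21% of all genes. At an unadjusted p under 0.05 there were 12, 12 and 13 of 55 members, against 11.2%, 7.68% and 10% of all genes, and 14 at 0 h, against 11.4%. DESeq2 called 4 at 6 h (CCND1 higher, and MCM3, MCM6 and UHRF1 lower), 1 at 12 h (UHRF1, lower), 0 at 24 h and 2 at 0 h (CENPE and KIF11, both lower), where it called 5.12%, 0.77%, 0.47% and 2.17% of all genes it gave a value at 6, 12, 24 and 0 h. These members were named after their values were seen. Without the libraries above 1.4, edgeR called CDKN1A higher and CENPE and KIF11 lower at 0 h, and CDKN1A higher and MCM6 and GINS2 lower at 6 h. The share of all genes called in those fits is not given here, so these calls have no baseline. Log2 fold changes of 41, 44, 45 and 41 of the 55 members were below 0 at 0, 6, 12 and 24 h, with medians of -0.21, -0.16, -0.21 and -0.15. The medians of all genes were 0.02, -0.03, -0.002 and 0.02. The share of all genes below 0 was not counted, and members that move together are not separate observations. On the TPM scale the 24 h median of the members turned to 0.18, where all genes shifted by 0.30, and stood at -0.12 relative to them.

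Of the 4 genes followed throughout, MKI67 was at 96.5, 106 and 109 CPM in H47_Ctrl and 84.9, 95.3 and 123 CPM in H47_KO at 0 h (log2 fold change -0.04 ± 0.15, adjusted p = 0.963) and at log2 fold change 0.23 ± 0.15, adjusted p = 0.64 at 24 h. CCND1 differed by 0.08 ± 0.25, adjusted p = 0.947 at 0 h and by -0.16 ± 0.25, adjusted p = 0.871 at 24 h. CDKN1A differed by 0.72 ± 0.32, adjusted p = 0.366 at 0 h and by 0.02 ± 0.32, adjusted p = 0.992 at 24 h. E2F1 differed by -0.35 ± 0.42, adjusted p = 0.825 at 0 h and by -0.11 ± 0.39, adjusted p = 0.949 at 24 h. None of these was called, and the signs of MKI67 and CCND1 at 0 h and of CDKN1A and E2F1 at 24 h changed when single libraries were left out.

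The mean of the 4 differences, a comparison chosen after the data were seen, used all 24 libraries of the arm. In it 1 member was higher and 8 were lower in H47_KO (16.4%, against 3.07% of all genes, of which 1.98% higher and 1.09% lower). CDKN1A was higher (log2 fold change 0.62 ± 0.16, adjusted p = 0.0231). Its call was lost without H47_Ctrl 0 h replicate 1 (adjusted p = 0.052), H47_KO 0 h replicate 1 (0.0623) or H47_KO 6 h replicate 2 (0.0608). Lower were the S phase members UHRF1 (log2 fold change -0.35 ± 0.07, adjusted p = 0.00194) and MCM6 (log2 fold change -0.31 ± 0.08, adjusted p = 0.0143). Lower too were the mitotic members KIF11 (log2 fold change -0.46 ± 0.09, adjusted p = 0.00313), CENPE, a kinetochore motor (log2 fold change -0.37 ± 0.09, adjusted p = 0.0174), CDK1 (log2 fold change -0.32 ± 0.07, adjusted p = 0.0123), KIF23 (log2 fold change -0.30 ± 0.08, adjusted p = 0.027) and CCNB2 (log2 fold change -0.27 ± 0.07, adjusted p = 0.0175), as well as CDKN3 (log2 fold change -0.30 ± 0.08, adjusted p = 0.0441). The CENPE call was lost without H47_Ctrl 12 h replicate 3 (adjusted p = 0.0531).

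Single libraries overlapped at some times and not at others. UHRF1 was at 106, 123 and 127 CPM in H47_Ctrl and 93.9, 80 and 79.6 CPM in H47_KO at 12 h, without overlap. CDK1 was at 169, 141 and 174 CPM in H47_Ctrl and 129, 116 and 115 CPM in H47_KO at 0 h, also without overlap, whereas at 6 h it was at 144, 181 and 151 and 127, 170.5 and 162 CPM, with overlap. Mean differences of 50 of the 55 members were below 0, including all 18 replication members (median -0.20) and 27 of 28 mitosis members (median -0.22), where the median of all genes was -0.01. Here too the share of all genes below 0 was not counted, and members that move together are not separate observations. On the TPM scale the same 18 and 27 lay below the median gene, but limma called 1 member higher and 1 lower (1.08% of all genes). DESeq2 called 1 higher and 11 lower (4.75% of all genes), and without the libraries above 1.4 edgeR called 1 higher and 9 lower. The share of all genes called in the last fit is not given here. Of the further lists, 4 of 28 replication genes and 5 of 42 mitosis genes were lower in the mean, and 0 were higher. Of all genes 1.09% were lower and 1.98% higher.

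**Figure D4:**
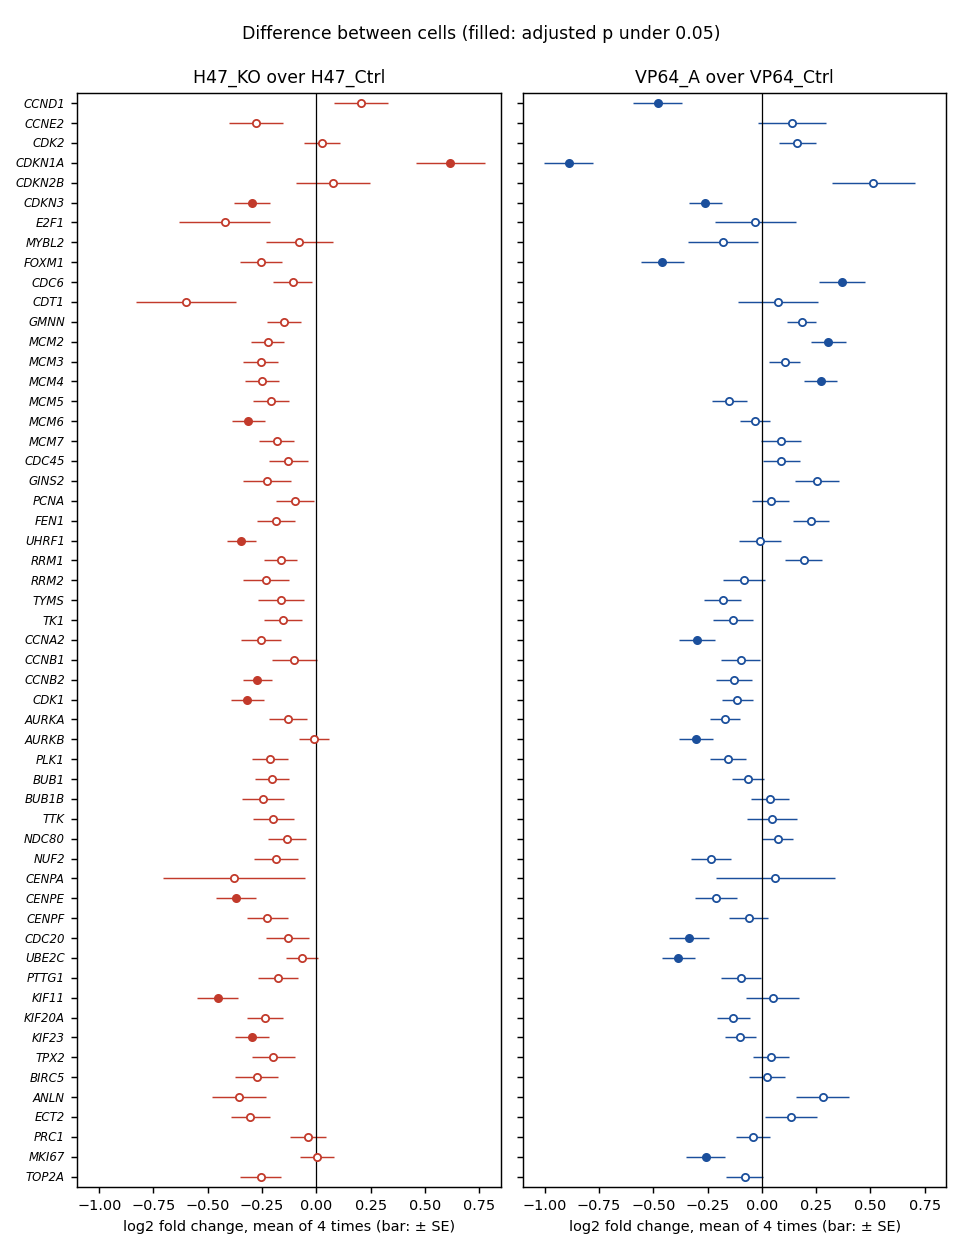
Log2 fold change of each tested member between cells, as the mean of the differences at 0, 6, 12 and 24 h (horizontal axes, bars ± SE), for H47_KO over H47_Ctrl (left) and VP64_A over VP64_Ctrl (right). Filled points have adjusted p under 0.05. On the left 50 of 55 points lie below 0 and CDKN1A stands apart at 0.62, and on the right CDKN1A is lowest at -0.89.

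To determine whether GLIS3 activation changed these genes, VP64_A was compared with VP64_Ctrl. At 0 h 2 members were higher and 4 lower (10.9%, against 9.41% of all genes called). CDKN1A was at 78.4, 70.1 and 54.8 CPM in VP64_Ctrl and 26.1, 33.5 and 21.3 CPM in VP64_A, with every VP64_A library below every control library (log2 fold change -1.33 ± 0.23, adjusted p = 0.000172). FOXM1 was at 39.9, 29.5 and 46.7 and 20.6, 23.2 and 22.9 CPM (log2 fold change -0.80 ± 0.19, adjusted p = 0.00515), and CDKN3 at 106, 93.2 and 102 and 68.5, 64.8 and 62.1 CPM (log2 fold change -0.62 ± 0.15, adjusted p = 0.00481), both without overlap. AURKB was also lower (log2 fold change -0.48 ± 0.15, adjusted p = 0.0409). ANLN was higher, at 201, 288 and 183 CPM in VP64_Ctrl and 340.3, 448 and 376 CPM in VP64_A (log2 fold change 0.79 ± 0.24, adjusted p = 0.0372), and so was MCM4, at 109, 113 and 89.4 and 147, 147 and 166 CPM (log2 fold change 0.56 ± 0.15, adjusted p = 0.0175).

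Several of these calls rested on VP64_Ctrl 0 h replicate 3. Without it adjusted p was 0.0545 for FOXM1, 0.188 for ANLN and 0.126 for MCM4, and 0 members were called higher and 3 lower (CDKN1A, CDKN3 and CDC20). Without VP64_A 0 h replicate 3, 3 members were called and adjusted p was 0.0931 for MCM4, and ANLN was lost without any of 5 libraries (adjusted p 0.0513 to 0.188). On the TPM scale 0 members were higher and 13 lower (10.3% of all genes), with all genes shifted by -0.33. The summed KRT8 and KRT18 level differed between the same libraries, as given above.

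At 6 h 0 members were higher and 3 lower (5.45%, against 3.76%). CDKN1A was at 211, 399.9 and 359 CPM in VP64_Ctrl and 122, 140.0 and 177 CPM in VP64_A (log2 fold change -1.14 ± 0.22, adjusted p = 0.00103), CCND1 at 2548, 2655 and 3558 and 1390, 1840 and 1780 CPM (log2 fold change -0.81 ± 0.23, adjusted p = 0.0342), and UBE2C at 160.1, 188 and 175 and 103, 125 and 121 CPM (log2 fold change -0.58 ± 0.15, adjusted p = 0.0188). None of the 3 pairs of ranges overlapped. The CCND1 call was lost in 5 of the 6 fits without 1 library (adjusted p up to 0.221, without VP64_Ctrl 6 h replicate 3), the exception being VP64_Ctrl 6 h replicate 1. UBE2C was lost without VP64_A 6 h replicate 1 (0.108), VP64_Ctrl 6 h replicate 2 (0.0995) or replicate 3 (0.0559).

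At 12 h edgeR called 0 members (4.31% of all genes), with 9 members at an unadjusted p under 0.05 (14.7% of all genes), and DESeq2 called AURKA (3.91% of all genes), which was named after its value was seen. At 24 h 1 member was lower and 0 higher (1.82%, against 4.13%). It was CDKN1A, at 101, 97.5 and 76.4 CPM in VP64_Ctrl and 58.5, 57.3 and 38.1 CPM in VP64_A (log2 fold change -0.84 ± 0.23, adjusted p = 0.0279), again without overlap. This call was lost without VP64_A 24 h replicate 3 (adjusted p = 0.237), VP64_Ctrl 24 h replicate 1 (0.116) or VP64_Ctrl 24 h replicate 2 (0.0916). The 24 h differences of the other genes followed throughout were -0.04 ± 0.18, adjusted p = 0.959 for MKI67, -0.35 ± 0.22, adjusted p = 0.509 for CCND1 and 0.04 ± 0.36, adjusted p = 0.984 for E2F1. At 0 h they were -0.51 ± 0.18, adjusted p = 0.062 for MKI67, -0.28 ± 0.22, adjusted p = 0.502 for CCND1 and -0.37 ± 0.36, adjusted p = 0.607 for E2F1.

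In the mean of the 4 differences, again chosen after the data were seen, 3 members were higher and 9 lower in VP64_A (21.8%, against 18.4% of all genes, of which 9.15% higher and 9.23% lower). The share of members was thus close to that of all genes. CDKN1A was lowest (log2 fold change -0.89 ± 0.11, adjusted p = 3.5e-07), followed by CCND1 (log2 fold change -0.48 ± 0.11, adjusted p = 0.00238), FOXM1 (log2 fold change -0.46 ± 0.10, adjusted p = 0.00107) and UBE2C (log2 fold change -0.38 ± 0.08, adjusted p = 0.000297). The other members called lower were CDC20 (-0.34), CCNA2 (-0.30), AURKB (-0.30), CDKN3 (-0.26) and MKI67 (-0.26, adjusted p = 0.0426). CDC6 (log2 fold change 0.37 ± 0.11, adjusted p = 0.014), MCM2 (log2 fold change 0.31 ± 0.08, adjusted p = 0.00741) and MCM4 (log2 fold change 0.27 ± 0.08, adjusted p = 0.0129), all of helicase loading, were higher. Replication members were called higher 3 times and lower 0 times, and mitosis members higher 0 times and lower 5 times. On the TPM scale, where all genes shifted by -0.13, 0 members were called higher and 18 lower (15.8% of all genes). Of the further lists, 12 of 42 mitosis genes were lower and 0 higher, and 1 of 28 replication genes was higher and 1 lower.

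In these means CDKN1A was called in both comparisons of cells, higher in H47_KO and lower in VP64_A, and CDKN3 was called lower in both. The comparisons use different libraries, and each rests on 1 transduced population per group.

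Whether the 24 h response itself differed between cells was tested by the interaction of cells and time. In the CRISPRko arm edgeR called 0 members (0% of all genes called), with 8 at an unadjusted p under 0.05 (5.62% of all genes), and DESeq2 called 0 (0.00574% of all genes). In the CRISPRa arm edgeR called 0 members (0.209% of all genes), with 4 at an unadjusted p under 0.05 (7.11%), and DESeq2 called CDKN3 (0.728% of all genes), named after its value was seen. For CCNE2, called with time in 3 groups and not in H47_Ctrl, the interaction of H47_KO with 24 h was 0.97 ± 0.34, adjusted p = 0.836. For CDKN1A it was -0.69 ± 0.45, adjusted p = 0.878 in the CRISPRko arm and 0.49 ± 0.32, adjusted p = 0.813 in the CRISPRa arm. With edgeR a difference in the 24 h response was thus not detectable for any member with these libraries.

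The members' levels per length, as mean TPM over the 48 libraries, spanned a wide range. CCND1 was highest at 601 TPM, followed by PTTG1 (348), CDC20 (324), UBE2C (288), TK1 (257) and RRM2 (252). The lowest were CCNE1 at 0.818 TPM, CDKN2B (2.17), CENPA (2.21) and CDT1 (2.34). CCNE1 had 0 to 17 counts in a library.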

How the data were processed

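RNA was prepared with TRIzol and Nextera XT and sequenced on a NextSeq 500. Per the study's methods and the labels, the authors used FastQC, Trim Galore, SortMeRNA, STAR with GRCh38 and Salmon, and deposited estimated counts and TPM for 29744 genes in 48 libraries. Versions, annotation and strand setting are not given in the sources used here, so reads from overlapping genes could not be told apart. Of the estimated counts 6.38% were not whole and were rounded.

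The counts of each arm (24 libraries, 8 groups) were tested with edgeR 4.0.16 in R 4.3.3 (TMM, filterByExpr with a minimum count of 10 and a total of 15, quasi-likelihood F test, common dispersion 0.0354 and 0.0336). After the filter 10962 CRISPRko genes and 10980 CRISPRa genes remained. Benjamini-Hochberg adjustment was over these genes. CPM are on TMM-scaled library sizes, and TPM was used for levels between genes. Alternatives were DESeq2 1.42.0 (the method the study names, and its size factors within edgeR), no filter on low counts, fits to the compared libraries alone, limma 3.58.1 on log2 TPM with a pseudocount of 1 or 0.1, the replicate number as a block, and leaving out each library. The means over 4 times and the fits without libraries whose TMM factor was above 1.4 were added after the data were seen. On simulated counts with 99 genes changed by 1 on the log2 scale in the CRISPRko arm, 53.5% were called, and with 98 in the CRISPRa arm, 52%. The members and gene lists were chosen with earlier results of these data known. Named genes are up to 5 called members with the largest fold change in each comparison, plus MKI67, CCND1, CDKN1A and E2F1 at 0 h, at 24 h and at 24 h over 0 h, and other members given with values were chosen after their values were seen. Promoters are from RefSeq by symbol. Same-numbered replicates were checked for pairing (closing section) and were not treated as pairs. No 2 libraries of a group held the same values.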

Additional observations from a re-analysis of the deposited data

Results flagged for a closer look

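Of the members, 3 had every library of VP64_A on one side of 0 h and every library of VP64_Ctrl on the other. How many of all genes did so was not counted, so this number has no baseline. MCM4, a helicase subunit, was at -0.30 in VP64_A and 0.20 in VP64_Ctrl (log2 fold change at 6 h over 0 h). Its CPM values at 6 h were 122, 143 and 107 in VP64_A and 122, 114 and 124 in VP64_Ctrl, against 147, 147 and 166 and 109, 113 and 89.4 at 0 h. KIF23, a midzone kinesin, was at -0.20 in VP64_A and 0.37 in VP64_Ctrl at 6 h over 0 h, with CPM values of 141, 136 and 110.0 and 173, 169 and 145 at 6 h against 148, 149.9 and 146 and 130.3, 139 and 107 at 0 h. The difference between the groups at 6 h was not tested for either gene. These sides rest on CPM with the scaling factors, and VP64_Ctrl 0 h replicate 3 had a factor of 1.84. On the TPM scale the median of all genes at 6 h over 0 h was -0.65 in VP64_Ctrl and -0.21 in VP64_A. The VP64_Ctrl shift is larger than the 0.20 and 0.37 of MCM4 and KIF23 there. The sides were not compared on the TPM scale. BUB1B, a spindle checkpoint gene, was at 0.41 in VP64_A and -0.50 in VP64_Ctrl at 24 h over 0 h. It was at 55.9, 49.7 and 65.7 CPM at 0 h and 73.4, 69.3 and 84.4 CPM at 24 h in VP64_A, and at 66.8, 75.1 and 91 and 50.9, 50.5 and 62.1 CPM in VP64_Ctrl. The interaction for BUB1B was 0.92 (edgeR unadjusted p = 0.000605, adjusted p = 0.154) and was not called.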

How the results depend on the processing

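Same-numbered libraries of different groups deviated together weakly or not at all (correlations of deviations from the group means from -0.101 to 0.19). In no comparison was every pair over 0.1. In H47_Ctrl at 6 h over 0 h each of the 3 libraries correlated best with its own number. A culture or batch shared by same-numbered libraries was not excluded by this check. With the replicate block, 0 members were called for H47_KO over H47_Ctrl at 6, 12 and 24 h and 9 in their mean, 6 for VP64_A over VP64_Ctrl at 0 h, and 24 in VP64_Ctrl at 24 h over 0 h, and the block moved no count of members by over 1.5 times. It put E2F1 in VP64_A over VP64_Ctrl at 24 h at -0.00173. DESeq2 called 2, 4 and 1 members for H47_KO over H47_Ctrl at 0, 6 and 12 h, 1 and 3 for VP64_A over VP64_Ctrl at 12 and 24 h, and 1 for the VP64_A interaction. No filter on low counts gave 2 and 3 for H47_KO over H47_Ctrl at 0 and 6 h and 1 for the VP64_A interaction. Fits to the compared libraries alone gave 18 in H47_Ctrl at 24 h, 12 in VP64_Ctrl at 24 h and 3 for VP64_A over VP64_Ctrl at 24 h. Without the libraries above a TMM factor of 1.4, 3 and 3 were called for H47_KO over H47_Ctrl at 0 and 6 h, 3 for VP64_A over VP64_Ctrl at 0 h and 13 in VP64_Ctrl at 24 h. With limma on log2(TPM + 1) and log2(TPM + 0.1), the counts were 0 and 0 for H47_KO over H47_Ctrl at 0 h and 2 and 2 in its mean, 6 and 7 in H47_Ctrl at 6 h, 33 and 33 in H47_KO at 6 h, 13 and 11, 1 and 1, and 5 and 5 for VP64_A over VP64_Ctrl at 0, 12 and 24 h, 42 and 41, 35 and 34, and 8 and 8 in VP64_Ctrl at 6, 12 and 24 h, and 4 and 4 in VP64_A at 24 h. CCND1 in H47_KO over H47_Ctrl at 24 h turned to 0.17 and 0.17, E2F1 there to 0.18 and 0.20, and E2F1 in VP64_A over VP64_Ctrl at 24 h to -0.22 and -0.27. The cause of these changes was not tested. The share of all genes called is not given beside the counts of members in this section. These counts therefore do not show a change particular to the members.

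Leaving out 1 library gave 0 to 1, 0 to 1, 0 to 0 and 0 to 1 members for H47_KO over H47_Ctrl at 0, 6, 12 and 24 h, 6 to 12 in its mean, 5 to 9, 13 to 22 and 3 to 6 in H47_Ctrl at 6, 12 and 24 h, and 10 to 16, 16 to 22 and 18 to 23 in H47_KO. It gave 3 to 7, 1 to 4, 0 to 0 and 0 to 1 for VP64_A over VP64_Ctrl, 11 to 15 in its mean, 13 to 18, 11 to 13 and 11 to 20 in VP64_Ctrl, 7 to 12, 10 to 17 and 7 to 11 in VP64_A, and 0 to 0 for both interactions. Log2 fold changes crossed 0 for MKI67 (H47_KO over H47_Ctrl at 0 h, -0.22 to 0.075; H47_KO at 24 h over 0 h, -0.0815 to 0.27; VP64_A over VP64_Ctrl at 24 h, -0.17 to 0.184; VP64_Ctrl at 24 h over 0 h, -0.32 to 0.0255), CCND1 (H47_KO over H47_Ctrl at 0 h, -0.0381 to 0.23), CDKN1A (H47_KO over H47_Ctrl at 24 h, -0.246 to 0.32) and E2F1 (H47_KO over H47_Ctrl at 24 h, -0.35 to 0.0565; VP64_A over VP64_Ctrl at 24 h, -0.243 to 0.23), none of which was called. For the 107 pairs of gene and comparison picked by rule, 752 values from other settings kept their direction and side of the threshold, 67 were weaker, 20 stronger and 7 reversed, and 738, 68, 0 and 16 when 1 library was left out. E2F1, CDKN2B and CDT1 were at a few CPM, so few counts lie behind their values, and the part of this in their calls was not tested.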
